A study of Mus musculus with 11 samples.

Results

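Glucose enters cells through transporters of the Slc2a family and is then trapped by phosphorylation and split in glycolysis. Several of these steps can be carried out by more than one gene product, and 6 genes of the pathway are described here: the glucose transporter Slc2a1 (GLUT1), the hexokinases Hk1 and Hk2, the aldolase Aldoc, the phosphoglycerate kinase Pgk1 and the phosphoglycerate mutase Pgam1. They were chosen by name and are 6 of the 4461 genes in the deposited table.

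RNA-Seq was performed on cell lines derived from mammary tumors of female FVB/N mice. All lines carry the NIC transgene, in which the MMTV promoter drives an activated ErbB2 (NDL2.5) together with Cre recombinase from 1 transcript, so that Cre is made in mammary epithelium. Tumors were excised 8 weeks post palpation, and the lines received no treatment. The 4 NIC/Cpt1a L/L lines (KO_1922, KO_1925, KO_2768 and KO_4258), labeled as conditional Cpt1a knockouts, were compared with the 2 NIC/Cpt1a+/+ lines (WT_5257 and WT_8905), labeled as wild-type, to ask how the transcriptome differs when Cpt1a, the enzyme that admits long-chain fatty acids to mitochondria for oxidation, is deleted. They are called Cpt1a L/L and Cpt1a+/+ lines in what follows. The 11 libraries are duplicates of each line, except for KO_2768, which has 1 library here, and the line is counted as the replicate (n = 4 and n = 2).

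Every gene in the table had passed the threshold of the authors' own comparison of the genotypes on these libraries. A difference between the genotypes in a listed gene is therefore not independent evidence, and genes outside the table, Cpt1a among them, were not analysed here. Every Cpt1a L/L library was deeper (18247312 to 25386785 reads in total) than every Cpt1a+/+ library (15199378 to 17372643), and the effects of depth and genotype cannot be told apart. Each of the 6 genes had between 535 and 57360 reads per line. Duplicate libraries correlated at 0.994 to 0.996 over 3115 genes, and their counts differed by more than sampling noise in every line, with a chi-square per degree of freedom of 10.6 in KO_4258 and 2.15 to 3.36 in the other lines. Of 16 mammary epithelial markers, only Elf5 and Krt17 are in the table, and they differed in opposite directions. Elf5 was at 336 to 2931 normalized counts in Cpt1a L/L lines and 5538 to 5792 in Cpt1a+/+ lines, and Krt17 was at 22.4 to 212 and at 0 and 0.573. Both together summed to 359 to 2996 and 5538 to 5792. Of 15 fibroblast and mesenchymal markers, 8 are in the table, and KO_2768 was the highest Cpt1a L/L line in 6 of them. They summed to 31963 normalized counts in KO_2768, against 335 to 3826 in KO_1922, KO_1925 and KO_4258 and 73.9 to 132 in Cpt1a+/+ lines. Most of the sum in KO_2768 came from Dcn, which encodes the matrix proteoglycan decorin and was at 27971 normalized counts there and listed at 0 in KO_4258 and both Cpt1a+/+ lines. Without Dcn the sum was 3992 in KO_2768, close to 3826 in KO_4258. Most of both sums was Mmp14, at 3207 in KO_2768 and 3691 in KO_4258. KO_4258 was the lowest Cpt1a L/L line in 6 of the 8 markers. Tagln made up most of the Cpt1a+/+ sums, at 132 in WT_5257 and 68.7 in WT_8905. It lay the other way from the sums, at 21.5 to 57.4 in Cpt1a L/L lines. Of 9 leukocyte markers, Csf1r and Tigit are in the table, and their sum was 6969 in KO_4258, 36.5 to 1444 in KO_1922, KO_1925 and KO_2768 and 0.588 to 9.16 in Cpt1a+/+ lines. Of 7 melanocyte and glial markers, Mlana was at 4570 in WT_5257, 671 in WT_8905 and 1.02 to 7.30 in Cpt1a L/L lines, while S100b was at 406 in KO_2768, 1.76 to 45.7 in KO_1922, KO_1925 and KO_4258, and 0 and 7.44 in the Cpt1a+/+ lines. Together they summed to 4570, 678 and 3.08 to 410. None of 4 endothelial markers is in the table.

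Transcript levels of Slc2a1, Hk2, Pgk1 and Pgam1 were above both Cpt1a+/+ lines in each of the 4 Cpt1a L/L lines, and those of Hk1 and Aldoc were below both. By line, the groups did not overlap for any of the 6 genes. The same holds for most of the table, where 40.7% of the listed genes had all Cpt1a L/L lines above both Cpt1a+/+ lines and 34.3% had them all below. With the cell line as the replicate, 0 of the 6 genes passed an adjusted p-value of 0.05 in edgeR's quasi-likelihood test. Of all tested genes in the table, 1.33% were called higher by line and 1.92% lower. At an unadjusted p-value of 0.05, 4 of the 6 passed, while 26.3% of the tested genes passed as higher and 21.5% as lower. DESeq2 on the same line sums called 4 of the 6, beside 30.9% of its tested genes called higher and 18.7% lower. For limma on log2(FPKM + 1) it was 1 of the 6, beside 9.22% higher and 10.8% lower. With each library counted as a sample, edgeR called all 6, but 55.5% of tested listed genes were called higher and 42.5% lower in that fit, and duplicates of a line are not independent.

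**Figure D1:**
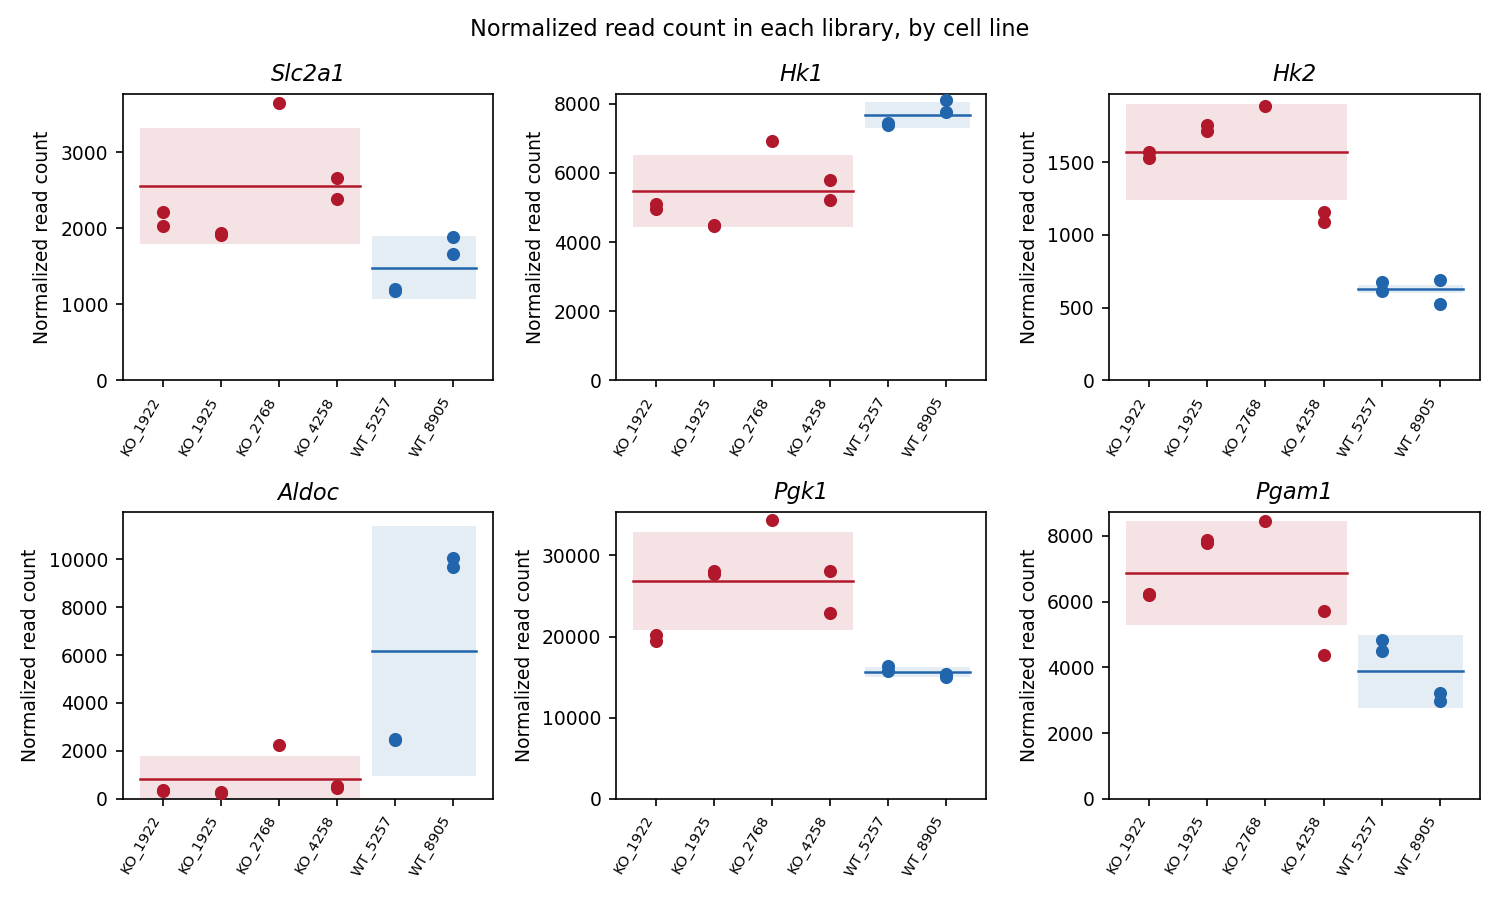
Normalized read count (linear axis from 0) of each gene in each library, with cell lines along the horizontal axis, Cpt1a L/L in red and Cpt1a+/+ in blue. Points are libraries, horizontal lines are means over cell lines and bands are ± 1 SD over lines (n = 4 and n = 2, lower edge held at 0). The groups of lines do not overlap in any panel, and KO_2768 is the highest Cpt1a L/L line in all 6.

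The promoters of the 4 genes with higher levels in Cpt1a L/L lines are shown because each holds the 5-letter core ACGTG, which hypoxia-inducible factors are known to bind and which overlaps the E-box CACGTG. The sequences are those upstream of the RefSeq start in GRCm38.p6, read 5′ to 3′ on the strand of the gene. Capitals mark ACGTG on either strand, so that CACGT is a match on the opposite strand. The table starts Slc2a1 at position 119108711, upstream of the RefSeq start at 119108745. Its stretch was ended at 119108713 to keep the match whole, of which the last 3 bases lie inside the gene as the table gives it.
Slc2a1, chr4:119108495-119108713, plus strand: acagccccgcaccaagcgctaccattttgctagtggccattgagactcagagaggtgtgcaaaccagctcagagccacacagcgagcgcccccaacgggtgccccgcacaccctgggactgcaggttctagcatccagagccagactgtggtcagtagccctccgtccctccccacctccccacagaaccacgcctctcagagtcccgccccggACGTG
Hk2, chr6:82774455-82774704, minus strand: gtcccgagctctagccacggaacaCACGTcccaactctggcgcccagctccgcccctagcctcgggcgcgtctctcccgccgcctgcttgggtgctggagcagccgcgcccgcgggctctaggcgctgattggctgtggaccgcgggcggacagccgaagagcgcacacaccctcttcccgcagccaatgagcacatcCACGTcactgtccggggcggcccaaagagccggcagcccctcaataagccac
Pgk1, chrX:106186850-106187099, plus strand: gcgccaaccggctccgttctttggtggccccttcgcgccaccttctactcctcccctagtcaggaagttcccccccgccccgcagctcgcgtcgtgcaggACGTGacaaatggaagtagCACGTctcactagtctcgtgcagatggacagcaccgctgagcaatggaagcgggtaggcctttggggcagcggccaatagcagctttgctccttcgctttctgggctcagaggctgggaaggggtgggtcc
Pgam1, chr19:41911621-41911870, plus strand: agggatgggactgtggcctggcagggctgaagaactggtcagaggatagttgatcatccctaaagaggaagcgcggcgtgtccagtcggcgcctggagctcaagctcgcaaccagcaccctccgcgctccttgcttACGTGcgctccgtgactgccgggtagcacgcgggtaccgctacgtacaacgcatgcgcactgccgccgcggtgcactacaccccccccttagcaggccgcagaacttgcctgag

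Counted from the RefSeq start, the matches lie at -36 in Slc2a1, at -226 and -52 in Hk2, at -150 and -131 in Pgk1 and at -114 in Pgam1. Both RefSeq starts of Hk1 and both of Aldoc lack the core in the 250 bases upstream. Within 50 bases after the start it occurs at +8 and +17 of the start of Hk1 at position 62340421 and at +28 of the start of Aldoc at position 78323073. The variant GCGTG was not counted. On either strand it occurs upstream of the Hk1 start at position 62340421 and the Aldoc start at position 78324198. It also occurs upstream of the starts of Slc2a1 and Pgam1, so the split between the genes rests on the letters searched. Of all 32851 RefSeq promoter windows, 16.6% hold the core in the 250 bases upstream and 19.6% hold it when the 50 bases after the start are included. The full E-box CACGTG was found in no window of the 6 genes and in 7.15% of all windows. The antioxidant response core TGACNNNGC was found only in Hk1, at -9 of the same start, and in 12.4% of all windows. These matches describe letters only, and binding was not measured.

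Slc2a1 encodes the main basal glucose transporter of many cell types and lies on chromosome 4 at 119108711-119137330 (mm10, plus strand). Its normalized read counts, which are counts divided by 1 size factor per library, were 2222 and 2037 in KO_1922, 1917 and 1943 in KO_1925, 3648 in KO_2768, and 2388 and 2658 in KO_4258. They were 1174 and 1204 in WT_5257 and 1887 and 1658 in WT_8905. By line, the lowest Cpt1a L/L value exceeded the highest Cpt1a+/+ value by 156 normalized counts, which is less than the 584 that separate the Cpt1a+/+ lines. The mean was 2555 ± 767 in Cpt1a L/L lines (SD, n = 4) and 1482 ± 413 in Cpt1a+/+ lines (SD, n = 2). The log2 fold change was 0.79 (SE 0.33, 95% interval -0.03 to 1.60), which did not pass the threshold (edgeR, adjusted p = 0.107). Without KO_2768, whose fibroblast marker sum is given above, it was 0.56, and the part of that marker signal in the Slc2a1 level was not tested.

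Hk1 and Hk2 both phosphorylate glucose and can bind the outer mitochondrial membrane. Hk1 is the widely expressed form, and Hk2 is the form of insulin-sensitive tissues that many tumors express. Hk1 lies on chromosome 10 at 62268855-62379908 (minus strand). Its normalized counts were 5114 and 4964 in KO_1922, 4452 and 4494 in KO_1925, 6910 in KO_2768, 5228 and 5799 in KO_4258, 7384 and 7437 in WT_5257, and 7754 and 8115 in WT_8905. All Cpt1a L/L libraries were below all Cpt1a+/+ libraries, and KO_2768 came within 503 normalized counts of WT_5257. The line means were 5477 ± 1041 (SD, n = 4) and 7672 ± 367 (SD, n = 2), with a log2 fold change of -0.49 (SE 0.21, 95% interval -1.01 to 0.04; edgeR, adjusted p = 0.111).

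Hk2 lies on chromosome 6 at 82725025-82774454 (minus strand). Its normalized counts were 1570 and 1532 in KO_1922, 1757 and 1715 in KO_1925, 1886 in KO_2768, and 1092 and 1156 in KO_4258. The Cpt1a+/+ libraries had 617 and 679 in WT_5257 and 692 and 527 in WT_8905. The gap between the groups of lines, 470.1 normalized counts, was larger than the 39.3 between the Cpt1a+/+ lines, although the duplicates of WT_8905 differed by 27.1% of their mean. The line means were 1574 ± 332 (SD, n = 4) and 631 ± 27.8 (SD, n = 2), a ratio of 2.50. The log2 fold change was 1.32 (SE 0.26, 95% interval 0.69 to 1.95), with an adjusted p-value of 0.0552 in edgeR's test by line. Hk2 was the member nearest to the threshold, and its call depended on the fit: it passed with TMM scaling (log2 fold change 1.14, edgeR, adjusted p = 0.0450), with limma on log2(FPKM + 1) (1.14, adjusted p = 0.0325), with DESeq2 (1.32, adjusted p = 0.000196), and in edgeR without KO_4258, the Cpt1a L/L line with the lowest Hk2 (1.45, adjusted p = 0.0273).

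FPKM, which divides reads by gene length and library total, allows the hexokinases to be set against each other within a line. The ratios and shares depend on the lengths used, 4278 bases for Hk1 and 5513 for Hk2. The GENCODE annotation gives 8532 and 5969 exon bases. Other lengths would move the ratio by the same factor in every line. Hk1 was the more abundant form in all 6 lines. Its FPKM was 4.19 times that of Hk2 in KO_1922, 3.32 times in KO_1925, 4.72 times in KO_2768 and 6.32 times in KO_4258, but 14.8 times in WT_5257 and 17.1 times in WT_8905. Hk2 thus made up 13.7% to 23.1% of the summed Hk1 and Hk2 FPKM in Cpt1a L/L lines (18.4% ± 3.94, SD, n = 4) and 5.64% to 6.35% in Cpt1a+/+ lines (6.0% ± 0.506, SD, n = 2). On the log2 scale the ratio of Hk2 to Hk1 was -2.17 ± 0.39 in Cpt1a L/L lines and -3.98 ± 0.14 in Cpt1a+/+ lines, a difference of 1.81, or 3.5-fold. This ratio does not depend on scaling between libraries. The lines did not overlap, which had to follow, since Hk2 lay above and Hk1 below both Cpt1a+/+ lines in every Cpt1a L/L line. A two-sided exact permutation test over the 15 assignments of lines, in which the one-sided p is doubled, gave p = 0.133. This is the smallest p that this form allows. It was fixed by the separation of the 2 genes and is no further evidence. Counting assignments by their absolute difference, an exact test of 4 against 2 lines could not go below 0.0667. Leaving out 1 line at a time moved the difference between 1.66 and 1.97.

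The summed FPKM of both hexokinases did not separate the genotypes. It was 76.5 in KO_1922, 71.3 in KO_1925, 97.3 in KO_2768 and 75.7 in KO_4258, against 96.6 in WT_5257 and 104 in WT_8905. The means of 80.2 ± 11.6 (SD, n = 4) and 100.2 ± 5.08 (SD, n = 2) belong to groups that overlap, because KO_2768 lies above WT_5257 (exact permutation test, two-sided, p = 0.267).

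**Figure D2:**
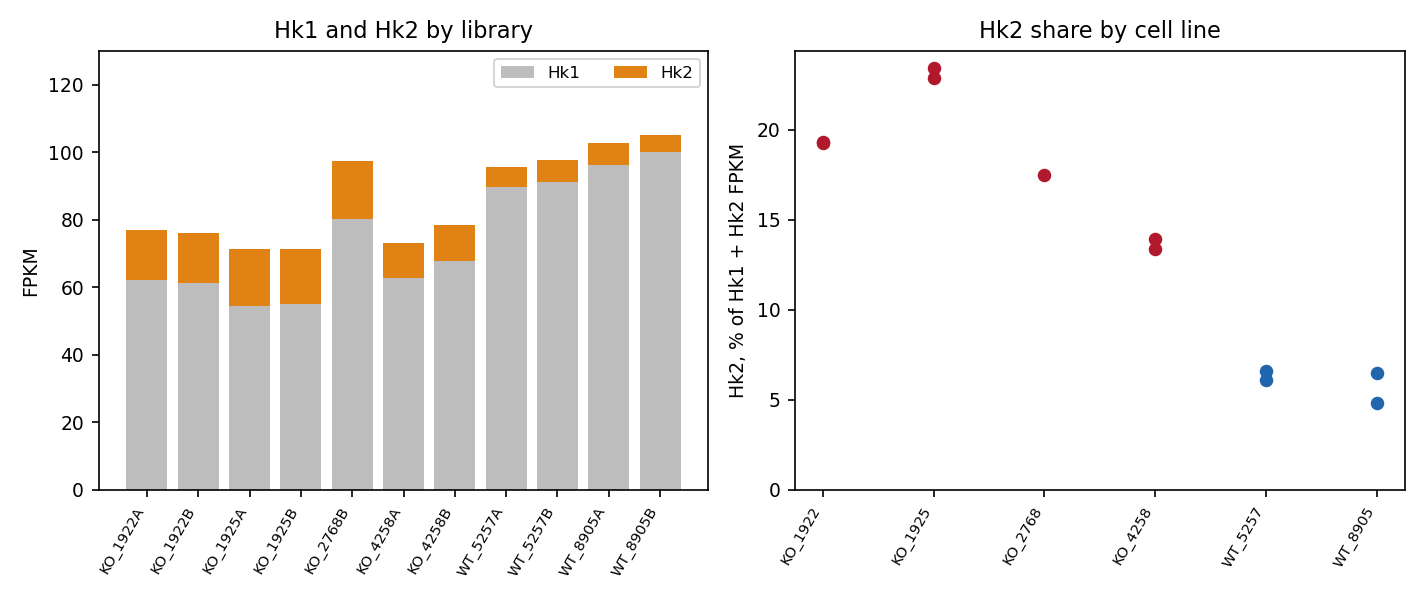
Left, FPKM of Hk1 (grey) and Hk2 (orange) stacked for each library. Right, the percentage of the Hk1 and Hk2 FPKM sum that is Hk2 in each library, by cell line, with Cpt1a L/L in red and Cpt1a+/+ in blue. Hk2 takes 13.7% to 23.1% in Cpt1a L/L lines and 5.64% to 6.35% in Cpt1a+/+ lines, while the stacked height of KO_2768 falls among the Cpt1a+/+ libraries.

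Aldoc, the brain form of the aldolase that splits fructose 1,6-bisphosphate, lies on chromosome 11 at 78322968-78327781 (plus strand) and was the most variable of the 6 genes. Its normalized counts were 335 and 356 in KO_1922, 289 and 256 in KO_1925, 2255 in KO_2768, and 461 and 546 in KO_4258. They were 2446 and 2482 in WT_5257 and 10072 and 9671 in WT_8905. KO_2768 thus lay 211 normalized counts below WT_5257 and far above KO_1922, KO_1925 and KO_4258, and the Cpt1a+/+ lines differed from each other by 7409 normalized counts. The line means were 843 ± 946 (SD, n = 4) and 6170 ± 5239 (SD, n = 2). The log2 fold change was -2.87 (SE 1.00, 95% interval -5.34 to -0.40; edgeR, adjusted p = 0.0891). Single lines set its size: without KO_2768 it was -4.05 and passed the threshold (edgeR, adjusted p = 0.0477), and without WT_8905 it was -1.55 (adjusted p = 0.291).

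Pgk1, on chromosome X at 106187100-106203699 (plus strand), makes the first ATP of glycolysis from 1,3-bisphosphoglycerate. Its normalized counts were 20174 and 19448 in KO_1922, 27735 and 28062 in KO_1925, 34392 in KO_2768, and 22845 and 28137 in KO_4258. In the Cpt1a+/+ libraries they were 15720 and 16365 in WT_5257 and 15399 and 14962 in WT_8905. The Cpt1a+/+ libraries lay close together, and the gap to the lowest Cpt1a L/L line, 3762 normalized counts, was larger than the 881 between the Cpt1a+/+ lines. The duplicates of KO_4258 differed by 20.8% of their mean. The line means were 26830 ± 6055 (SD, n = 4) and 15625 ± 623 (SD, n = 2). The log2 fold change was 0.78 (SE 0.28, 95% interval 0.10 to 1.46), with an adjusted p-value of 0.0896 in edgeR's test by line.

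Pgam1, on chromosome 19 at 41911871-41918664 (plus strand), converts 3-phosphoglycerate to 2-phosphoglycerate, the step after Pgk1. Its normalized counts were 6245 and 6202 in KO_1922, 7798 and 7888 in KO_1925, 8443 in KO_2768, and 4373 and 5710 in KO_4258. They were 4498 and 4820 in WT_5257 and 3213 and 2975 in WT_8905. By line the groups were 298 normalized counts apart, less than the 1575 between the Cpt1a+/+ lines, and the lower library of KO_4258 fell below both libraries of WT_5257. The duplicates of KO_4258 differed by 26.5% of their mean for this gene. The line means were 6870 ± 1576 (SD, n = 4) and 3883 ± 1114 (SD, n = 2), with a log2 fold change of 0.82 (SE 0.30, 95% interval 0.08 to 1.57; edgeR, adjusted p = 0.0947).

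**Figure D3:**
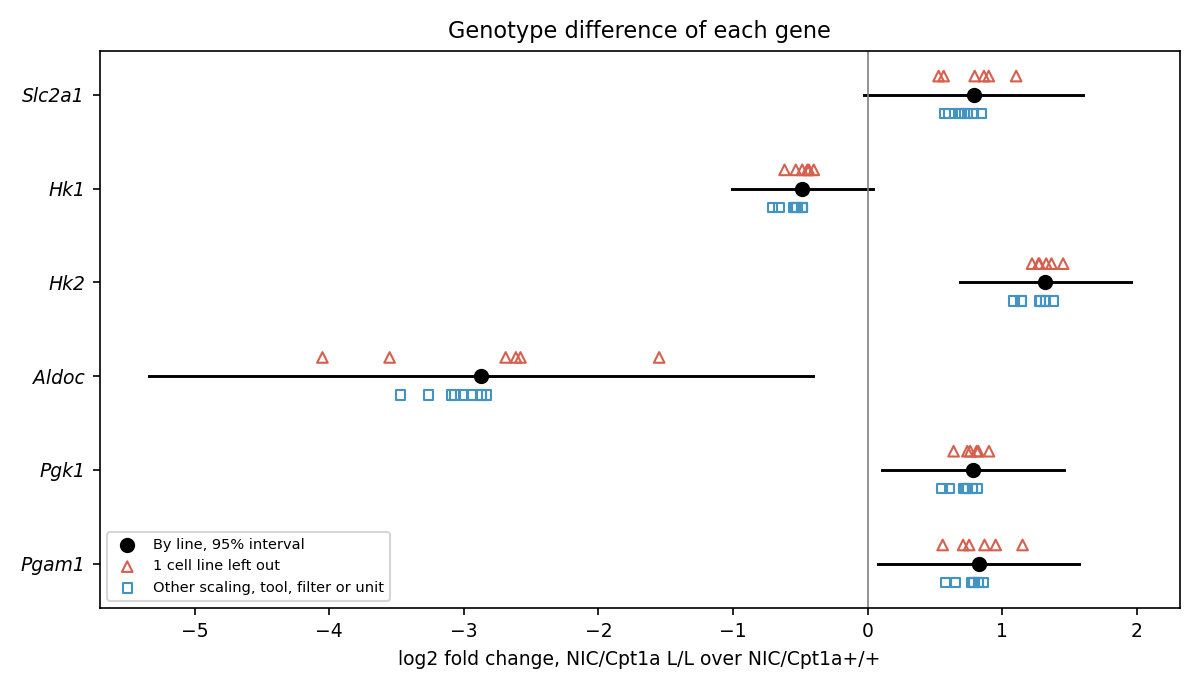
Log2 fold change of each gene, Cpt1a L/L over Cpt1a+/+. Black points and bars are edgeR's estimate by line and its 95% interval, triangles leave out 1 cell line each, and squares use another scaling, tool, filter, sample unit or FPKM. No estimate changes sign, the Aldoc estimates spread from -4.05 to -1.55, and the intervals of Slc2a1 and Hk1 include 0. As the groups of lines do not overlap, leaving out 1 line could not change a sign.

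Pgk1 and Pgam1 each have a processed pseudogene in the table, so some of their reads could be assigned either way. Further annotated copies, Pgk1-ps1, Pgk1-ps3 and Pgam1-ps1, are outside the table. Neither the likeness of the sequences nor the share of reads that fit both was measured. Pgk1-rs7 received 30 to 100 reads per line, or 0.110% to 0.204% of the Pgk1 reads. Pgam1-ps2 received 133 to 402 reads, which was 2.37% to 2.65% of the Pgam1 reads in every line. Whether counting used the strand is not given in the sources used here. On the opposite strand, the antisense gene Gm12868 shares 105 exon bases with Slc2a1 (2.99% of its exon bases in the GENCODE annotation) and Hk1os shares 157 with Hk1 (1.84%), and neither antisense gene is in the table.

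Levels of different genes were compared by FPKM, so that their order depends on the gene lengths used. Pgk1 was the highest of the 6 in every line, at 569 to 937 in Cpt1a L/L lines and 439 and 459 in Cpt1a+/+ lines. In KO_1922, KO_1925 and KO_4258 it was followed by Pgam1 (139 to 225), Hk1 (54.8 to 65.4), Slc2a1 (38.8 to 49.1), Hk2 (10.3 to 16.5) and Aldoc (5.13 to 9.17). KO_2768 had the same order, with Pgam1 at 229, Hk1 at 80.3 and Slc2a1 at 69.5, except that Aldoc (40.2) stood above Hk2 (17.0). In the Cpt1a+/+ lines Hk2 was lowest, at 6.14 in WT_5257 and 5.85 in WT_8905. Aldoc came next after Hk1 in WT_5257 with 46.2, between Hk1 (90.5) and Slc2a1 (23.8). In WT_8905 Aldoc came directly after Pgk1 with 187, above Hk1 (98.0), Pgam1 (89.3) and Slc2a1 (35.9), and Hk1 and Pgam1 there are neighbors whose duplicates nearly meet (96.1 and 99.9 against 93.0 and 85.6). In KO_4258 Hk2 (10.2 and 10.5) and Aldoc (8.52 and 9.81) were also close.

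Whether lines of the same genotype differ was tested with cell line as the factor in all 11 libraries, with duplicates as the residual, a contrast that did not serve to list the genes. KO_2768 has no duplicate and is assumed to vary like the other lines. All 6 genes differed among the Cpt1a L/L lines, as did 90.8% of the tested genes. The highest and the lowest line were 3.05 apart for Aldoc on the log2 scale, 0.92 for Slc2a1, 0.79 for Pgk1, 0.76 for Pgam1, 0.75 for Hk2 and 0.63 for Hk1 (edgeR, adjusted p from 1.29e-11 for Hk1 to 5.09e-37 for Aldoc). For Slc2a1, Hk1, Aldoc and Pgk1 this range was larger than the genotype difference by line, and for Hk2 and Pgam1 it was smaller. Without KO_2768 the range was smaller than the genotype difference in those 4 genes too, at 0.38 against 0.56 for Slc2a1, 0.29 against -0.62 for Hk1, 0.87 against -4.05 for Aldoc and 0.49 against 0.64 for Pgk1. KO_2768 was the highest Cpt1a L/L line in all 6 genes, so leaving it out had to reduce each range. For Hk1 and Aldoc it was also the Cpt1a L/L line nearest to the Cpt1a+/+ lines.

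Between the Cpt1a+/+ lines, where 65.6% of the tested genes differed, 3 of the 6 passed. Relative to WT_8905, WT_5257 was lower by a log2 difference of -2.0 in Aldoc (edgeR, adjusted p = 6.46e-34) and -0.58 in Slc2a1 (adjusted p = 1.14e-10), and higher by 0.59 in Pgam1 (adjusted p = 9.79e-11). The differences of -0.10 in Hk1, 0.09 in Hk2 and 0.08 in Pgk1 did not pass in the same fit (adjusted p = 0.101, 0.375 and 0.255). The Hk1 difference passed under TMM scaling (-0.19, adjusted p = 0.00115), and that of Pgk1 changed sign (-0.0088).

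KO_2768 was the highest of the 4 Cpt1a L/L lines in all 6 genes, while it was the highest in 34.5% of the listed genes with counts in these lines. It was followed by KO_4258 for Slc2a1, Hk1 and Aldoc, and by KO_1925 for Hk2, Pgk1 and Pgam1. KO_4258 was the lowest for Hk2 and Pgam1, KO_1925 for Slc2a1, Hk1 and Aldoc, and KO_1922 for Pgk1. Without KO_2768 the log2 range among the remaining lines was 0.66 for Pgam1 and 0.63 for Hk2. The same line carries the fibroblast marker sum given above, and its part in the 6 levels was not tested. In bulk libraries, more cells of a type and more RNA per cell cannot be told apart.

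The likeness of the genes was described by Pearson's r of log2 levels over the 6 lines after centering each genotype on its mean, among 3133 other listed genes with a mean of at least 100 normalized counts. With 6 points and 2 removed means, high values are easily reached. The share of genes above 0.9 was 2.43% for Slc2a1, 2.49% for Hk1, 2.59% for Aldoc, 2.71% for Pgam1, 0.415% for Pgk1 and 5.71% for Hk2. The likeness was not examined without KO_2768, the highest Cpt1a L/L line in all 6 genes. Slc2a1 followed Aldoc (r = 0.994) and Hk1 (0.92), and Hk1 followed Aldoc (0.90). Hk2 followed Pgam1 (0.86) and neither followed Slc2a1 (0.14 for Hk2 and -0.09 for Pgam1). The genes most like each member were Tmem50a for Slc2a1 (0.997), Flrt3 for Hk1 (0.997), A130010J15Rik for Hk2 (0.996), Itga5 for Aldoc (0.997), Sufu for Pgk1 (0.996) and Epn1 for Pgam1 (0.995).

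The rest of glucose metabolism was taken from 7 lists of 90 genes that cover transporters, hexokinases, upper and lower glycolysis, lactate and pyruvate fate, regulators of flux and gluconeogenesis. Of these, 29 are in the table and 28 had enough counts to be tested. By line, 17 were higher and 11 lower in Cpt1a L/L lines, and 1 was called in each direction. Of all tested listed genes, 1.33% were called higher and 1.92% lower. Without the 6 members, 13 of 22 tested genes were higher, and they had a median log2 fold change of 0.60. Over all tested listed genes the median was also 0.60, and 2506 of 4273 were higher. Pdk3, a kinase that inhibits pyruvate dehydrogenase, rose from 172 and 209 normalized counts in the Cpt1a+/+ lines to 574, 671, 750 and 781 in KO_1922, KO_1925, KO_2768 and KO_4258 (log2 fold change 1.86, SE 0.25; edgeR, adjusted p = 0.0354). Its paralog Pdk2 lay the other way, from 1246 and 894 to 241, 186, 639 and 566 (log2 fold change -1.39, SE 0.55, edgeR, adjusted p = 0.101). Pdk4 was listed at 0 in both Cpt1a+/+ lines and at 90.5, 80.1, 1774 and 0.439 in the Cpt1a L/L lines. Slc16a7, which encodes the monocarboxylate transporter MCT2, fell from 437 and 775 to 45.7, 43.3, 29.3 and 65.5 (log2 fold change -3.72, SE 0.44, edgeR, adjusted p = 0.0258). Of the 8 lactate and pyruvate genes tested, 4 were higher and 4 lower.

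In lower glycolysis, which turns glyceraldehyde 3-phosphate into pyruvate, 5 of 15 genes are in the table, and all 5 were higher in Cpt1a L/L lines, and the median log2 fold change was 0.66. Over all tested genes 58.6% were higher, and the median was 0.60. None of the 5 was called by line in edgeR's test, beside 1.33% of all tested genes called higher. All 5 were called by library, beside 55.5% of tested listed genes called higher and 42.5% lower. Besides Pgk1 and Pgam1 the 5 genes are Gapdh (0.51, SE 0.23), Eno1 (0.54, SE 0.27) and Eno1b (0.66, SE 0.17). Eno1b is a copy of Eno1 whose reads cannot be firmly told from those of Eno1. Gapdh had 32008 to 43450 normalized counts in Cpt1a L/L lines and 25323 and 28545 in Cpt1a+/+ lines. Eno1 overlapped between the genotypes, with 15591 in KO_4258 against 16515 in WT_8905. Upper glycolysis had only Aldoc in the table, of 10 genes, so that the other aldolases were not analysed here.

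Among transporters, 4 of 14 are in the table. Slc2a5, the fructose transporter GLUT5, was listed at 0 in all Cpt1a+/+ libraries and was at 106 normalized counts in KO_1922, 61.2 in KO_1925, 1.58 in KO_2768 and 1.32 in KO_4258. Slc2a9, a urate transporter, had 79.8, 21.9, 99.9 and 2.20 normalized counts in KO_1922, KO_1925, KO_2768 and KO_4258, against 389 in WT_5257 and 268 in WT_8905 (log2 fold change -2.69, SE 1.21; edgeR, adjusted p = 0.113). Slc2a10 did not exceed 1.46 in Cpt1a L/L lines, was at 1.76 and 19.5 in the Cpt1a+/+ lines, and had too few counts to be tested. By FPKM, Slc2a1 was the highest of these transporters in every line, with 23.8 or more against 5.64 or less for the others.

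Of 20 genes outside glycolysis that respond to hypoxia, 7 are in the table (Bnip3, Ndrg1, P4ha1, P4ha2, Fam162a, Angptl4 and Lox). All 7 were higher in Cpt1a L/L lines on average, beside 58.6% of all tested genes, and the median log2 fold change was 3.02. In 5 of the 7 all Cpt1a L/L lines were above both Cpt1a+/+ lines, beside 40.7% of all listed genes. None of the 7 was called by line in edgeR's test, beside 1.33% of all tested genes called higher. By library 6 were called, beside 55.5% of tested listed genes called higher and 42.5% lower. Egln3, which encodes an oxygen-sensing prolyl hydroxylase that is also induced by hypoxia and was placed among the regulators of flux, lay the other way. It was at 1364, 395, 5729 and 27.2 normalized counts in KO_1922, KO_1925, KO_2768 and KO_4258, against 13356 in WT_5257 and 10209 in WT_8905 (log2 fold change -2.65, SE 1.57; edgeR, adjusted p = 0.156). Ndrg1, a stress-responsive gene, had 1770, 1121, 8294 and 4999 normalized counts in KO_1922, KO_1925, KO_2768 and KO_4258, and 148 and 727 in WT_5257 and WT_8905. As with the 6 glucose genes, KO_2768 was the highest Cpt1a L/L line in all 7. WT_8905 was above WT_5257 in all 7, as it was for Slc2a1, Hk1 and Aldoc, and in 50.8% of the listed genes. Lox, which crosslinks collagen, and P4ha2, a collagen prolyl hydroxylase, were low in KO_4258, at 0.879 and 44.8 normalized counts, and at 11691 and 3720 in KO_2768, the line with the highest fibroblast marker sum.

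**Figure D4:**
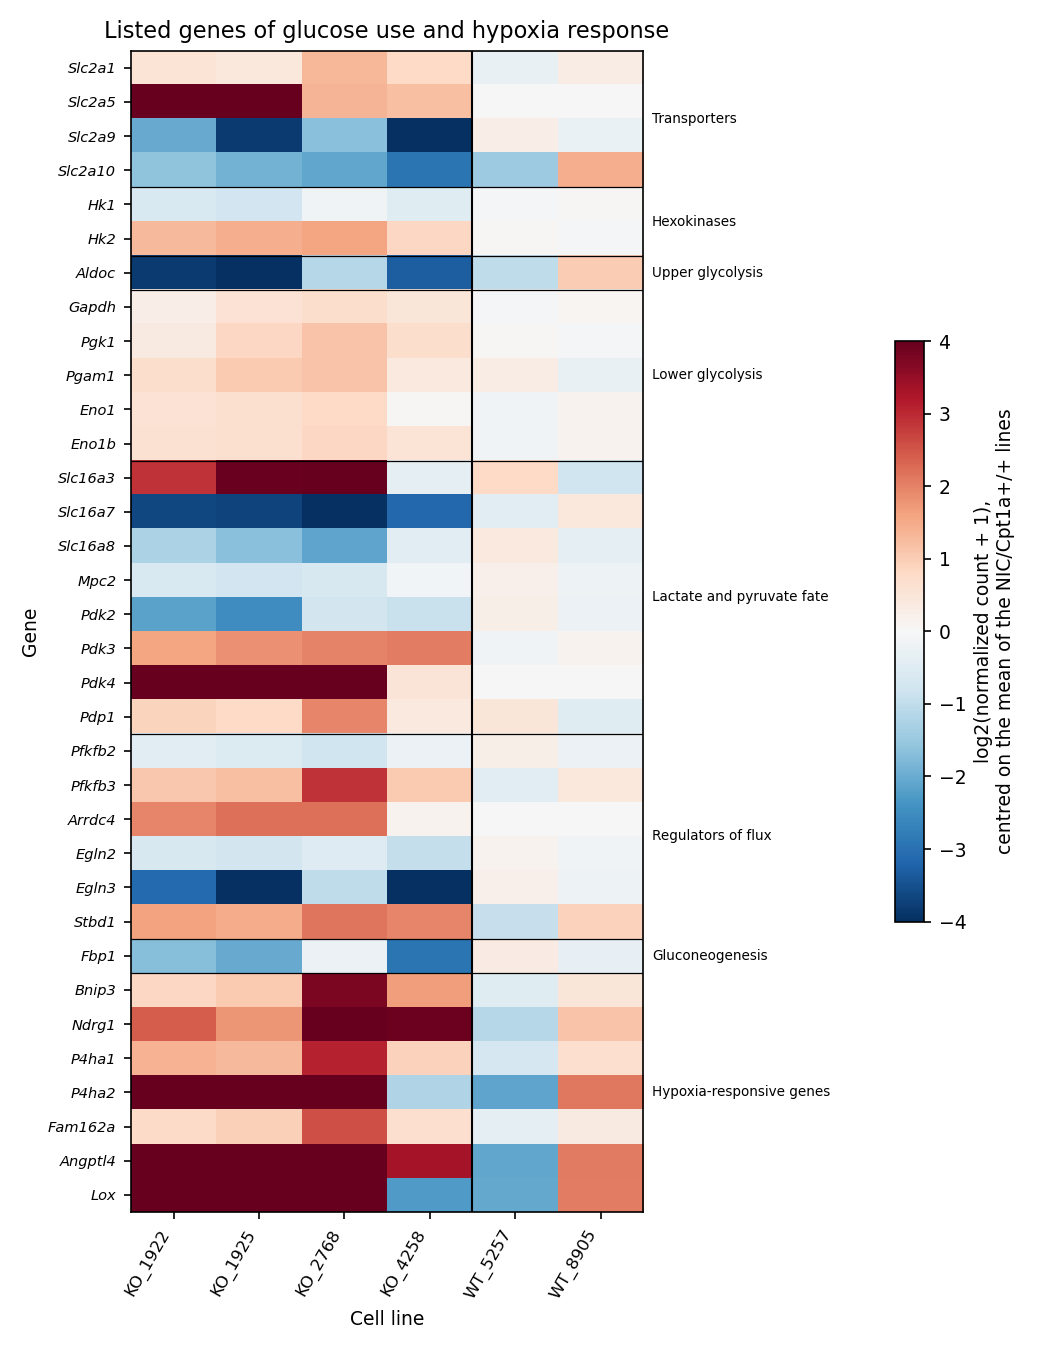
Genes of the 7 glucose lists and of the hypoxia list whose values are reported here (rows) in each cell line (columns), as log2(normalized count + 1) minus the mean of the Cpt1a+/+ lines. Colors are capped at -4 and 4, and a vertical line separates the genotypes. Lower glycolysis is above the Cpt1a+/+ mean in all Cpt1a L/L lines, Aldoc is below it in all 4, and KO_2768 has the highest value among Cpt1a L/L lines in every hypoxia gene.

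The share of listed genes with higher levels in Cpt1a L/L lines also differed by chromosome. It was 58.6% over all tested genes, 85.3% of 347 genes on chromosome 4 with Slc2a1, 79.0% of 167 on chromosome 19 with Pgam1, 70.0% of 130 on chromosome X with Pgk1, 63.7% of 303 on chromosome 11 with Aldoc, 51.7% of 207 on chromosome 10 with Hk1 and 46.0% of 226 on chromosome 6 with Hk2. Chromosome number was not measured, and its part in the levels was not tested.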

How the data were processed

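RNA was sequenced from 11 libraries of 6 cell lines. The authors aligned reads to mm10 with STAR v2.5, counted them per gene with HTSeq v0.6.1 and compared genotypes with DESeq2. Their deposited table holds whole read counts, a normalized signal, in which 1 size factor for each library divides the counts, and FPKM (per gene length and library total). It also holds the log2 fold changes and p-values, raw and adjusted, that the authors deposited from their comparison, which were not used. The strand setting is not given in the sources used here. Library totals were recovered from counts, lengths and FPKM, and the listed genes carry 33.3% to 34.6% of them.

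Samples were grouped by the genotype field of their labels. The wording of the titles reads the other way and was not followed. Counts of duplicates were summed by line, scaled with the deposited size factors and tested in R 4.3.3 with edgeR 4.0.16 (filterByExpr, quasi-likelihood test, Benjamini-Hochberg over the 4273 listed genes tested). Since genes outside the table did not enter the adjustment, adjusted p-values over all genes would be larger. The 6 genes, the gene lists and the rule for named genes (members, their isoforms and paralogs, and list genes past the threshold) were chosen with earlier results of these data known. Further genes were named after their values were seen. Intervals of counts and the floor of 3 reads cover counting error only. The labels number the libraries of a line as biological replicates, but no source used here says whether they came from separate cultures, so tests over libraries measure a spread that may be technical. The scripts were tested on simulated data. Alternatives used limma 3.58.1 (log2(FPKM + 1), FPKM of at least 1), DESeq2 1.42.0, other scalings, no filter, 1 library per line, a replicate block and leaving out lines. Python 3.11.15, scipy 1.17.1 and matplotlib 3.10.9 served for permutation tests and plots. Promoters were taken from RefSeq windows of 250 bases before to 50 after each start, matched by symbol for all 6 genes. The values of some list genes are not reported here, although they enter the counts of their lists.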

Additional observations from a re-analysis of the deposited data

Results flagged for a closer look

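Aldoc in KO_2768 lay far from KO_1922, KO_1925 and KO_4258. Its gap to the nearest line, divided by the range of the 4 lines, was 0.886, above Dixon's 95% critical value for 4 samples, with 2255 normalized counts against 273 to 499. On the log2 scale the same ratio was 0.714, below that value. Chance alone puts about 1 in 20 groups past this limit, and 8 measures were examined. The next highest ratio was 0.802, for the summed FPKM of Hk1 and Hk2 in the same line. KO_2768 has 1 library here and the highest fibroblast marker sum, and the part of either in its Aldoc level was not tested.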

How the results depend on the processing

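Directions of the 6 genotype differences did not change under any alternative run. Leaving out 1 line could not change them, since the groups of lines do not overlap in any of the 6 genes. The differences ranged over alternatives other than left-out lines from 0.57 to 0.85 for Slc2a1, -0.71 to -0.49 for Hk1, 1.09 to 1.38 for Hk2, -3.47 to -2.83 for Aldoc, 0.55 to 0.81 for Pgk1 and 0.58 to 0.86 for Pgam1. TMM and median-of-ratios scaling assume that most listed genes are equal. They shifted the log2 fold changes of genes tested in both fits by a median of -0.17 and -0.22, and the members shifted the same way. Calls depended on the tool and the sample unit, and the cause was not tested. Hk2 passed with TMM (1.14), limma on FPKM (1.14) and DESeq2 by line (1.32), and DESeq2 by line also called Aldoc (-2.87), Pgk1 (0.78) and Pgam1 (0.82). Counting each library as a sample called all 6 genes, at 0.70 for Slc2a1, -0.54 for Hk1, 1.28 for Hk2, -3.26 for Aldoc, 0.73 for Pgk1 and 0.78 for Pgam1.

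The library numbers did not pair across lines (correlations of deviations from -0.0882 to 0.0793 in 10 pairs), and with the replicate block the values were 0.68, -0.55, 1.28, -3.47, 0.71 and 0.77 in the same order, with all 6 called. Listed genes called higher and lower by line, 57 and 82, became 99 and 291 with TMM, 100 and 294 with median-of-ratios, 1356 and 819 with DESeq2, 314 and 366 with limma, 2189 and 1677 by library and 2122 and 1660 with the replicate block. Leaving out 1 line moved them between 0 and 307 higher and between 0 and 237 lower. Both counts were 0 in edgeR without KO_1922, KO_1925 or WT_5257, where 743 and 603, 758 and 620, and 462 and 431 genes had an unadjusted p-value under 0.05, and 307 and 237 without KO_4258. With 1 line left out, log2 fold changes lay between 0.53 and 1.10 for Slc2a1, -0.62 and -0.40 for Hk1, 1.22 and 1.45 for Hk2, -4.05 and -1.55 for Aldoc, 0.64 and 0.90 for Pgk1, and 0.56 and 1.15 for Pgam1. A fit with 1 line left in a genotype assumes that it varies like the others. Between the Cpt1a+/+ lines, TMM moved Hk1 to -0.19, past the threshold, and turned Pgk1 to -0.0088. Precision is limited by the spread among 4 and 2 lines, since every member had at least 535 reads per line.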
